A study of Mus musculus with 384 samples.

Results

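The 8 genes described here encode subunits of voltage-gated sodium channels, and they were taken by symbol (Scn1a, Scn2a1, Scn3a, Scn8a, Scn9a, Scn2b, Scn3b, and Scn4b) from a table of 41267 gene entries. All 8 were present in the table, and 25681 of its entries had at least 1 read in the cells used. The 384 cells came from 8 mice of 1 genotype, DAT IRES Cre;Ai9 on a C57BL6/J background, in which Cre made from the dopamine transporter gene switches on the red reporter tdTomato. No mouse was treated, and cells were sorted as tdTomato+ and negative for the dead-cell dye propidium iodide. The dissected piece held midbrain and hypothalamus, the reporter stays on in a cell once Cre has acted, and each mouse was a single capture run on a Fluidigm C1 chip. By the sample labels, 3 mice were female (25, 33, and 36 days old) and 5 were male (24, 24, 27, 27, and 28 days old). The series text counts the sexes differently.

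Voltage-gated sodium channels open when the membrane is depolarized and carry the inward current that drives the upstroke of the action potential. Each channel has 1 large alpha subunit, which forms the pore and senses voltage, and smaller beta subunits, which change gating and trafficking and bind neighboring proteins as cell adhesion molecules. In midbrain dopamine neurons, these channels take part in slow pacemaking as well as in spiking, and the study recorded action potentials from neurons of the Neurod6 lineage and from neurons of the substantia nigra.

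The 209 cells with at least 500000 reads counted on genes were used, 12–45 per mouse. Their depth was 500672–1544824 reads (median 780484) with a median of 9123 genes, and the cells of 1 mouse summed to 8499846–32834551 reads. Of these cells, 197 held at least 10 reads of both Th and Slc6a3, 2 genes that define dopamine neurons. The summed level of 7 dopamine neuron markers was 9241–17409 CPM (reads per 1000000 reads on all genes) over the mice. Markers of other cells were also counted in some mice: astrocyte markers summed to 554 CPM in mouse 1, oligodendrocyte markers to 2082 CPM in mouse 3, and GABA neuron markers to 1010 CPM in mouse 8. Microglial markers reached 0.536 CPM at most, with C1qa, C1qb, and Aif1 at 0, and endothelial markers 0.678 CPM, with Cldn5 at 0. No 2 cells had identical counts.

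The genes lie in groups. On GRCm38, 4 of the alpha genes lie in 1 stretch of chromosome 2, with other genes among them: Scn3a (65457118–65567591), Scn2a1 (65620764–65767447, named Scn2a in RefSeq), Scn1a (66270781–66440837), and Scn9a (66480080–66635114), 1177997 bases in all. Scn8a is on chromosome 15 (100869863–101045938). The beta genes are on chromosome 9: Scn3b (40269216–40291618), Scn2b (45117876–45130070), and Scn4b (45138624–45154155). Other annotated genes overlap Scn1a, Scn3a, Scn9a, Scn2b (the gene Gm10684), and Scn3b, by whole gene spans with introns included. The library kit does not mark strand, so reads from a shared stretch cannot be told apart by strand. The authors' counting left out reads on more than 1 gene of its own annotation. No gene of the GENCODE annotation overlaps Scn2a1, Scn8a, or Scn4b.

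Scn2b and Scn4b lie on the same strand with 8553 bases between them, and they had the most and the fewest reads of the 8 genes. The 250 bases before each RefSeq start are shown because the genes lie so near each other with such different counts, with the letters CCAAT (or ATTGG on the other strand) in capitals. Both are from GRCm38.p6, on the plus strand, chr9:45117626-45117875 for Scn2b and chr9:45138374-45138623 for Scn4b.
Scn2b: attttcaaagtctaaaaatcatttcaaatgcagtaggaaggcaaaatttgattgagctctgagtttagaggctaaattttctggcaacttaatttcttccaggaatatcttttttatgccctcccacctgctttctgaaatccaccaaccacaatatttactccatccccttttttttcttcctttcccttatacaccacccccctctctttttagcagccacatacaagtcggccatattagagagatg
Scn4b: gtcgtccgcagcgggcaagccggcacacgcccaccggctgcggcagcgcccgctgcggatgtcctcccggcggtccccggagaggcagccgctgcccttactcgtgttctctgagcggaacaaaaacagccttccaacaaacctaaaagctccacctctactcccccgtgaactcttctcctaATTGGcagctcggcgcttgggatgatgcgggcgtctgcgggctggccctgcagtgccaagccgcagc
The Scn2b window was 38.4% G and C with 1 CG dinucleotide, and the Scn4b window was 66.0% with 23, against medians of 52.4% and 6 over 32851 mouse promoter windows of this length. On both strands, CCAAT was found once in the Scn4b window and in 33.8% of all windows. The TATA box (TATAAA, 12.4% of all windows), the GC box (GGGCGG, 32.7%), the CRE (TGACGTCA, 1.55%), and the left part of the RE1 element (TTCAGCACC, 0.301%) were found in neither. These are matches of letters in 1 window per gene, and nothing about binding follows from them.

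Among the alpha genes, Scn2a1 had the highest level per length in every mouse. Levels between genes were compared as RPKM, that is, CPM per kilobase of exons. Scn2a1 encodes Nav1.2, the channel of unmyelinated axons and of the early axon initial segment. Its level in mice 1 to 8 was 33.6, 41.0, 52.1, 60.3, 58.6, 46.5, 54.7, and 67.5 RPKM, a mean of 51.8 ± 11.0 RPKM (SD, n = 8). At least 10 reads of Scn2a1 were found in 205 of 209 cells, 98.1% (exact 95% binomial interval 95.2–99.5%).

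Scn3a, which encodes Nav1.3 and is best known from the embryonic brain, was second. Its level was 27.2, 27.8, 22.5, 29.9, 37.7, 27.0, 41.4, and 38.4 RPKM in mice 1 to 8, a mean of 31.5 ± 6.76 RPKM (SD, n = 8). It was below Scn2a1 in 8 of 8 mice, although the ranges of the 2 genes over mice overlapped. It was detected at 10 reads in 203 of 209 cells, 97.1% (93.9–98.9%).

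Scn1a (Nav1.1, mutated in Dravet syndrome) followed at 15.3 ± 4.63 RPKM (SD, n = 8). Mice 1 and 7 were low, at 8.22 and 9.05 RPKM, and the other mice were at 15.1–20.7 RPKM. All 8 values were below every value of Scn3a. Scn1a was detected in 174 cells, 83.3% (77.5–88.0%).

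Scn9a (Nav1.7, known from nociceptors and olfactory neurons) was at 11.9 ± 6.56 RPKM (SD, n = 8), the widest relative spread of the 5 alpha genes. Its level was 24.8 RPKM in mouse 1, 16.1 in mouse 7, 16.0 in mouse 8, and 5.52–9.21 in the others. Mouse 1, with the most Scn9a and the least Scn2a1, was also the mouse with the most reads of astrocyte markers (Gja1 at 247 CPM and Slc1a3 at 296 CPM) and the highest level of the GABA neuron marker Gad1 (265 CPM). Gja1 was at 40.2 CPM in mouse 2 and at 0.761 CPM or less in the others. Not every marker of these cell types peaked in mouse 1. The GABA neuron marker Gad2 was at 272 CPM in mouse 1 and at 893 CPM in mouse 8. The astrocyte marker Aldh1l1 was at 0 CPM in mouse 1 and at 4.01 CPM in mouse 8. The part of such cells in these levels was not tested. Scn9a and Scn1a ranges overlapped, and Scn9a was detected in 165 cells, 78.9% (72.8–84.3%).

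Scn8a, which encodes Nav1.6, the main channel of the mature axon initial segment and of nodes of Ranvier, was the lowest of the 5 at 6.28 ± 1.70 RPKM (SD, n = 8). It was lower than Scn9a in 8 of 8 mice, with overlapping ranges. At least 10 reads were found in 138 of 209 cells, 66.0% (59.2–72.4%), and at least 1 read in 89.0%.

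As a share of the summed RPKM of these 5 genes, Scn2a1 made up 44.2 ± 5.91%, Scn3a 26.8 ± 2.84%, Scn1a 13.2 ± 3.48%, Scn9a 10.4 ± 6.32%, and Scn8a 5.49 ± 1.75% (SD, n = 8 mice). Scn2a1 was the largest share in 8 of 8 mice, from 33.5% in mouse 1 to 51.6% in mouse 4. In single cells the order varied more: the alpha gene with the most reads per exon length was Scn2a1 in 143 cells, Scn3a in 44, Scn9a in 11, Scn1a in 8, and Scn8a in 3. Most cells held several alpha genes at once. All 5 reached 10 reads in 98 cells (46.9%), 4 in 78 cells (37.3%), 3 in 24 cells, 2 in 4, 1 in 3, and none in 2 cells.

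**Figure D1:**
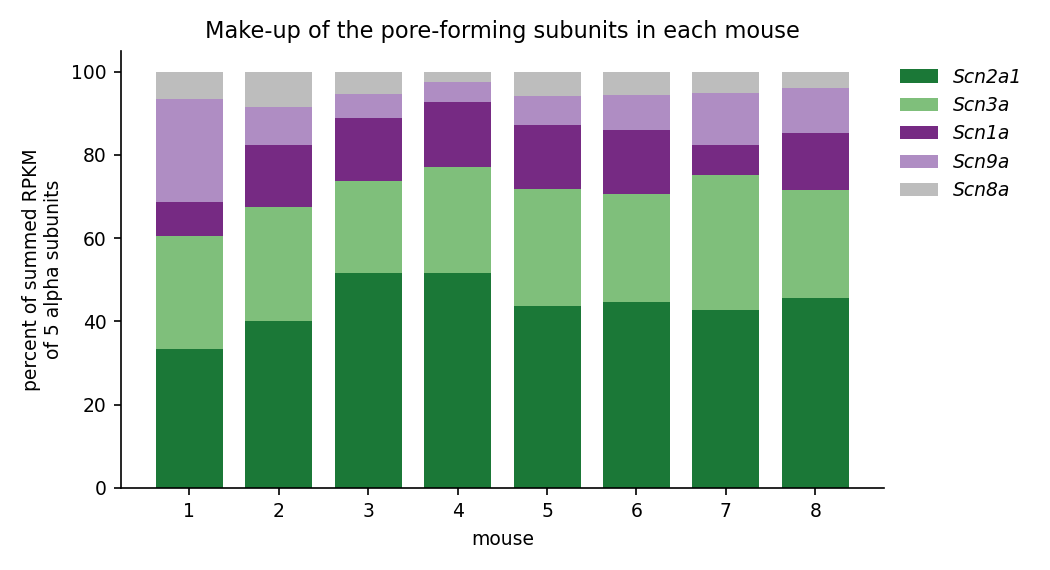
Make-up of the alpha subunits in each mouse. The x axis gives the mouse and the y axis the percent of the summed RPKM of the 5 alpha genes, with 1 color per gene. Scn2a1 is the largest share in each of the 8 bars, and Scn9a is widest in mouse 1 (24.6%).

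Of the 3 beta genes described here, Scn2b had by far the highest level. Scn2b encodes the beta2 subunit, which is joined to the alpha subunit by a disulfide bond. Its level in mice 1 to 8 was 516.5, 1050.2, 1243, 629, 447, 960.2, 727.5, and 870 RPKM, a mean of 805 ± 275 RPKM (SD, n = 8). No mouse fell near the next gene: Scn3b, which encodes the noncovalently bound beta3 subunit, was at 82.9 ± 15.9 RPKM (58.1–102 RPKM).

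In the sum of Scn2b, Scn3b, and Scn4b, Scn2b made up 90.0 ± 3.09% of the RPKM (SD, n = 8 mice, 83.5–93.9%) and Scn3b 9.97 ± 3.09%. Both were widely detected, Scn2b in 203 of 209 cells (97.1%, 93.9–98.9%) and Scn3b in 195 (93.3%, 89.0–96.3%). The ranges of Scn3b and Scn2a1 overlapped, although Scn3b was higher in 8 of 8 mice. RPKM assumes even coverage of the exons, and the exons of the alpha genes span 8386–11385 bases against 3958–4982 for the 3 beta genes. Coverage along the transcripts was not examined here.

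The 6 cells with fewer than 10 reads of Scn2b were also low in other neuronal genes. In 4 of them Snap25, a SNARE protein of the synaptic vesicle fusion machinery, was below 10 reads as well, and their median Snap25 level was 12.9 CPM against 5888 CPM in the other cells. Their median Scn2a1 level was 2.73 CPM against 418 CPM, and 2 of the 6 had both Th and Slc6a3.

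Scn4b, the beta4 subunit gene known for its part in resurgent current, was nearly unread. All of its 31 reads were in 1 cell of mouse 8, where they made 30.7 CPM, and it had 0 reads in the other 7 mice. A count of 0 allowed up to 0.353 CPM in mouse 4, the mouse with the fewest reads, and up to 0.0914 CPM in mouse 3, the mouse with the most. These limits cover counting error only, since the libraries have no molecular identifiers. Scn4b was too low to be tested in any comparison.

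**Figure D2:**
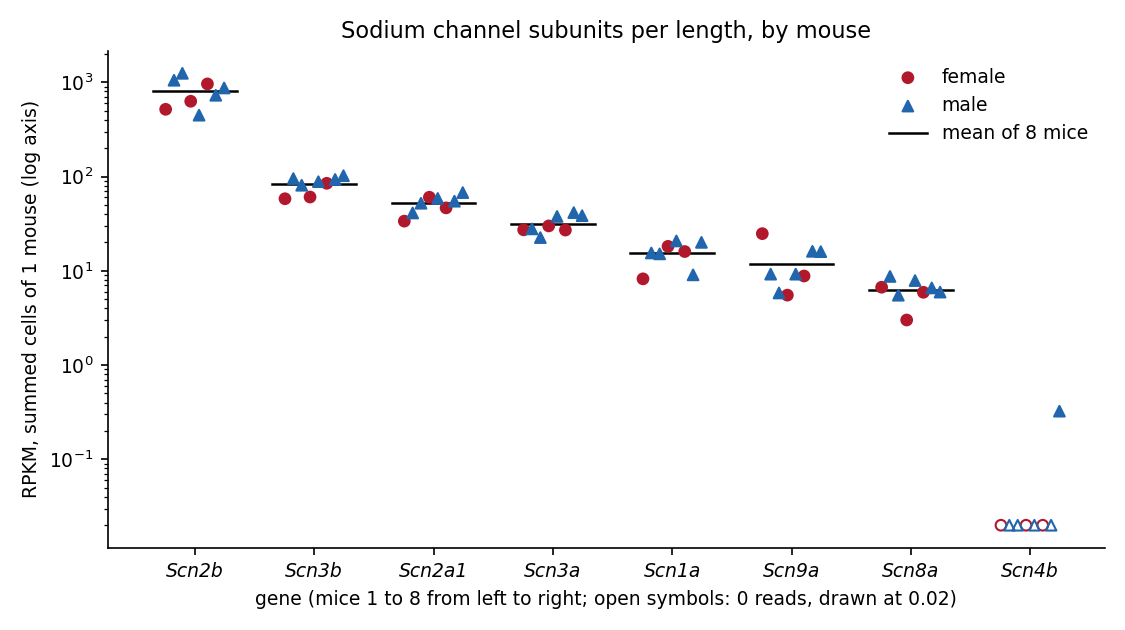
Level of each subunit gene by mouse. The y axis is RPKM on a log scale, each point is the summed cells of 1 mouse (circles female, triangles male, mice 1 to 8 from left to right), and bars are means of 8 mice, with no bar for Scn4b. Scn2b lies above every other gene, and 7 of the 8 Scn4b points are at 0 reads.

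Sodium channel genes outside these 8 were also counted. Scn7a encodes Nax, a channel that responds to the sodium concentration and is known from glia and sensory circumventricular organs. It stood at 719.3 CPM in mouse 1 and at 0.122–53.0 CPM in the other mice, and 9 of the 18 cells of mouse 1 held at least 10 reads. Scn4a (muscle) and Scn10a and Scn11a (nociceptors) had 10, 68, and 97 reads in all. Scn10a reads were all in 1 cell of mouse 8.

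Across cells, Scn2a1, Scn3a, Scn2b, and Scn3b went together and Scn1a, Scn8a, and Scn9a stood more apart. The measure was Pearson's r of log2(CPM + 1) over 209 cells with the mean of each mouse removed, a description only, since cells share libraries, depth, and cell quality. The highest pair was Scn2a1 with Scn2b, at 0.63, followed by Scn2b with Scn3b at 0.44, Scn3a with Scn3b at 0.41, and Scn2a1 with Scn3a at 0.40. Scn1a, Scn8a, and Scn9a each correlated at 0.28 or less with every other member, and Scn8a with Scn9a gave -0.0033. They were also less widely detected, with at least 10 reads in 83.3%, 66.0%, and 78.9% of cells, against 93.3–98.1% for Scn2a1, Scn3a, Scn2b, and Scn3b. What lower detection did to r was not tested.

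**Figure D3:**
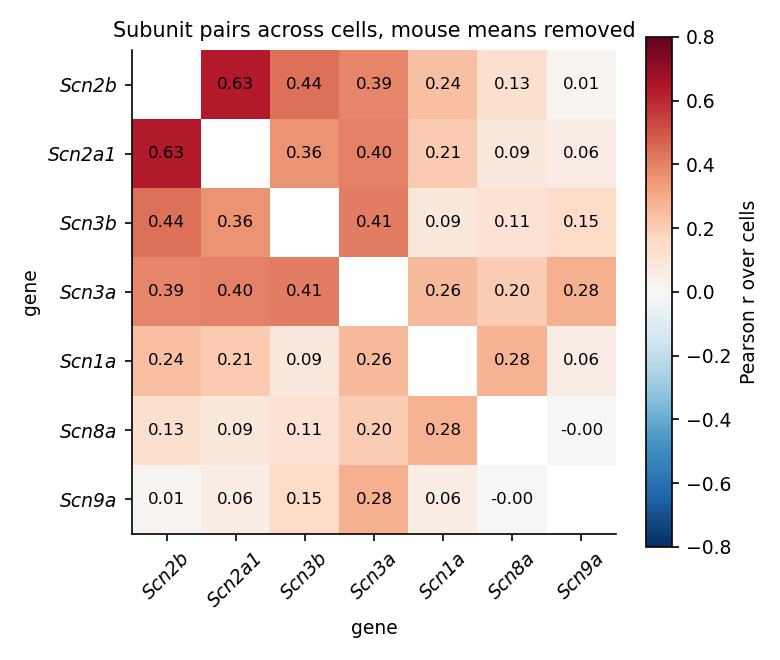
Pearson's r between pairs of subunit genes. Both axes list the 7 genes with at least 10 reads in 100 cells or more, and each cell of the grid gives r over 209 cells with mouse means removed. The Scn2a1 and Scn2b pair is the highest (0.63), and no pair with Scn1a, Scn8a, or Scn9a is above 0.28.

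The genes most like each member were taken from 5285 genes with at least 10 reads in 100 cells. For Scn2b these were Snap25 (r = 0.85), the kinetochore gene Zwint (0.81), and the synaptotagmin gene Syt4 (0.80). For Scn2a1 they were the neuronal enolase Eno2 (0.76), the reticulon Rtn1 (0.70), and Snap25 (0.69). Scn3a was most like Disp2 (0.63), the synaptic vesicle gene Syp (0.61), and Gprasp1 (0.61).

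Scn3b was most like the synaptic vesicle genes Syngr3 (0.62) and Syt1 (0.61) and the vesicular monoamine transporter Slc18a2 (0.59). The likeness was looser for the other alpha genes. Scn1a gave Megf11 (0.43), the sodium pump subunit Atp1b1 (0.43), and Spock2 (0.39), and Scn8a gave the calcium pump Atp2a2 (0.38), Rusc1 (0.34), and Megf11 (0.34). Scn9a gave Mapk1ip1l (0.34), the kappa opioid receptor Oprk1 (0.33), and Ctxn1 (0.30).

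Cells were next compared by whether they held at least 10 reads of Neurod6, a transcription factor of ventromedial ventral tegmental neurons (49 cells), of Grp, the gene of gastrin-releasing peptide (77 cells), or of Aldh1a7, an aldehyde dehydrogenase gene (74 cells). These classes rest on single-cell counts, and a cell with fewer reads of the gene may still express it. Of the Neurod6+ cells, 43 were also Grp+ and 18 also Aldh1a7+. Counts were summed per mouse and class and tested over all genes with the quasi-likelihood test of edgeR. Replicates are mice, with at least 3 cells in each class. The comparisons share cells, so their results are not independent of each other.

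By Neurod6 status (6 mice, 12606 genes tested), 0 of the 7 members tested passed an adjusted p of 0.05, where 0.0555% of all genes did (7 genes, and 1 with the mouse as a block). At an unadjusted p under 0.05, which 6.20% of all genes had, there was 1 of 7 members, Scn8a, and DESeq2, which called 2.05% of all genes, called 0 members. Scn8a was at 13.9, 76.7, 64.8, 61.3, 34.4, and 20.2 CPM in the Neurod6+ cells of mice 1, 2, 3, 5, 7, and 8. In the Neurod6- cells of the same mice it was at 90.0, 109, 62.2, 95.3, 105, and 116 CPM. Scn8a was thus lower in Neurod6+ cells in 5 of 6 mice, with mouse 3 the exception and overlapping groups. The log2 fold change was -1.01 (SE 0.39, edgeR p = 0.0203, adjusted p = 0.701). With mouse 3 left out it was -1.24, among cells with both Th and Slc6a3 it was -1.08, and with 1 read making a cell Neurod6+ it was -0.38. The Neurod6+ value of mouse 1 rests on 32 reads in 3 cells. At least 10 reads of Scn8a were found in 63.3% of Neurod6+ cells (48.3–76.6%) and in 66.9% of Neurod6- cells (59.0–74.1%), and the intervals overlapped.

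None of the other members passed. Scn3a gave a log2 fold change of 0.37 (SE 0.24), and 0.20 without mouse 5. Scn1a gave -0.34 (SE 0.34), and -0.051 without mouse 8. Scn9a, Scn2b, Scn2a1, and Scn3b lay between -0.14 and 0.14. The median of the 7 was -0.08, against 0.00090 over all genes tested. Neurod6- cells also held the glial markers, with astrocyte markers summing to 0.186–676 CPM over mice against 0–3.61 CPM in Neurod6+ cells, oligodendrocyte markers to 19.3–2511 CPM against 18.6–131 CPM, and GABA neuron markers to 27.8–1694 CPM against 2.47–333 CPM. DESeq2 called Gja1 (DESeq2 adjusted p = 0.00122) and Mag (DESeq2 adjusted p = 0.000794), both too low to be tested in edgeR. The part of such cells in these differences was not tested beyond the restriction to Th and Slc6a3.

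By Grp status (7 mice, 12518 genes tested), 0 of 7 members passed in edgeR, where 0.00799% of all genes did (Grp itself), and 1 member, Scn8a, passed in DESeq2, which called 1.35% of all genes. Scn8a was at 56.2, 90.4, 35.9, 54.5, 29.3, 35.9, and 35.7 CPM in Grp+ cells of mice 1, 2, 3, 5, 6, 7, and 8. In the Grp- cells of those mice it was at 85.6, 109, 68.8, 105, 101, 130.3, and 121 CPM. Scn8a was lower in the Grp+ cells of all 7 mice, and the groups overlapped only because the Grp+ cells of mouse 2 were above the Grp- cells of mice 1 and 3. The log2 fold change was -1.07 (SE 0.25). The unadjusted edgeR p was 0.000576, and the adjusted p was 0.453 in edgeR and 0.00554 in DESeq2. The call therefore depended on the tool, and over all the alternatives tried the log2 fold change ran from -1.27 to -0.75, with adjusted p up to 1.00 (among Neurod6- cells only).

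The share of cells with at least 10 reads of Scn8a was 59.7% in Grp+ cells (46 of 77, exact 95% interval 47.9–70.8%) and 69.7% in Grp- cells (92 of 132, 61.1–77.4%), and the intervals overlapped. With each cell thinned to 500000 reads the shares were 53.2% and 63.6%. Median depth was 809513 reads per cell in Grp+ and 744562 in Grp- cells.

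Of the other members, Scn3a was higher in Grp+ cells in 6 of 7 mice (medians 324 and 225 CPM), with a log2 fold change of 0.36 (SE 0.19, edgeR p = 0.0726, adjusted p = 0.901). Scn2a1 was lower in Grp+ cells in 6 of 7 mice, at -0.19 (SE 0.20), within 1 SE. Scn1a, Scn9a, Scn2b, and Scn3b lay between -0.23 and 0.17. The median of the 7 members was -0.19, against -0.02 over all genes. Astrocyte markers summed to 0–0.665 CPM in Grp+ cells and to 0–811 CPM in Grp- cells. Oligodendrocyte markers summed to 11.1–95.9 CPM in Grp+ cells and to 22.6–2558 CPM in Grp- cells, with Mbp (DESeq2 adjusted p = 0.00601) and Mag (DESeq2 adjusted p = 0.00699) called in DESeq2, as was the astrocyte marker Gja1 (DESeq2 adjusted p = 0.00302). In edgeR, Mbp was not called, and Mag and Gja1 were too low to be tested. Their part in the Scn8a difference was not tested beyond the restriction to Th and Slc6a3: among cells with both Th and Slc6a3 the Scn8a fold change was -1.11.

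**Figure D4:**
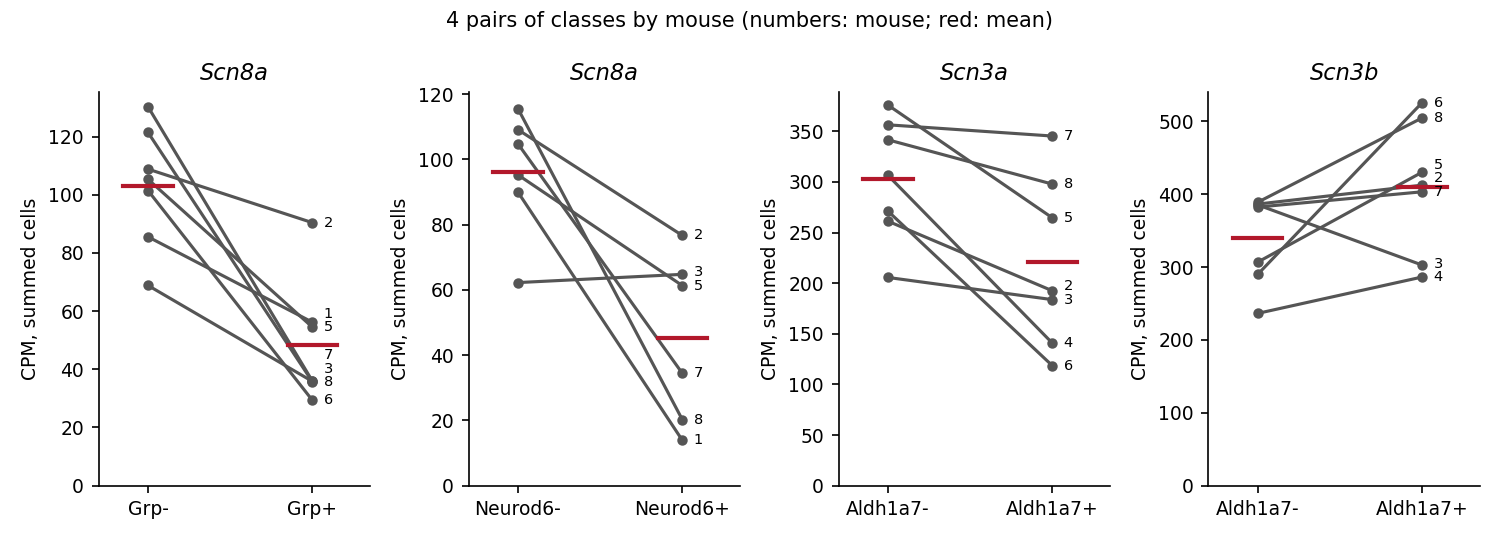
Scn8a by Grp and Neurod6 status, and Scn3a and Scn3b by Aldh1a7 status. The y axes give CPM of the summed cells, each line joins the 2 classes of 1 mouse (numbered), and red bars are means over mice. Scn8a lines fall in 7 of 7 mice by Grp status and in 5 of 6 by Neurod6 status, Scn3a lines fall in 7 of 7 mice, and Scn3b lines rise in 6 of 7.

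Because most Neurod6+ cells were Grp+, the Grp+ cells were also split by Neurod6, an alternative added after the data were seen. Of the members tested, Scn9a then had the largest log2 fold change. Both kinds reached 3 cells in 5 mice (2, 3, 5, 7, and 8), where Grp+/Neurod6+ cells held 110.0, 119, 195, 179, and 142 CPM of Scn9a, and Grp+/Neurod6- cells 67.2, 71.1, 47.8, 58.7, and 44.2 CPM. The groups did not overlap, but the share of all genes without overlap was not counted. Of the 10986 genes tested, 0.0091% were called. The log2 fold change was 1.35 (SE 0.29, edgeR p = 0.000372, adjusted p = 0.371), and Scn9a did not pass.

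Cells with neither gene held 43.5–268 CPM of Scn9a over 8 mice, a range that took in both kinds in the 5 mice of the split. In mouse 6, which was not in that split, Grp+/Neurod6- cells were below it, at 30.6 CPM. Among Neurod6- cells, Grp+ against Grp- gave -1.13 for Scn9a (SE 0.36, edgeR p = 0.00697, adjusted p = 1.00, lower in 5 of 6 mice, with 0.00848% of all genes called), in a comparison that shares the Grp+/Neurod6- cells with the first. Scn3b went the other way among Grp+ cells: it was lower in Neurod6+ cells in 5 of 5 mice, 229–379 against 330.0–516.7 CPM, at -0.56 (SE 0.21, edgeR p = 0.0177, adjusted p = 1.00).

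For Scn8a, the log2 fold change by Neurod6 was -0.39 (SE 0.53) once only Grp+ cells entered. Among Neurod6- cells it was at -0.79 (SE 0.39) by Grp, with Grp+ cells lower in 5 of 6 mice. Its mean level was 42.8 ± 22.9 CPM in Grp+/Neurod6+ cells (SD, n = 6 mice), 59.5 ± 39.4 CPM in Grp+/Neurod6- cells (n = 6), and 94.6 ± 29.9 CPM in Grp-/Neurod6- cells (n = 8). The 6 Grp-/Neurod6+ cells gave a sum in 1 mouse only, 68.6 CPM.

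By Aldh1a7 status (7 mice, 12782 genes tested), 0 of 7 members passed in edgeR, where 0.407% of all genes did (52, and 29 with the mouse as a block), 1 (Scn3b) had an unadjusted p under 0.05, as had 11.0% of all genes, and DESeq2 called 0 members where it called 3.53% of all genes. Scn3b was at 412, 303, 286, 430.2, 526, 403, and 504.6 CPM in Aldh1a7+ cells of mice 2 to 8 and at 386, 385, 236, 307, 290.0, 382, and 389 CPM in Aldh1a7- cells. It was higher in Aldh1a7+ cells in 6 of 7 mice, mouse 3 being the exception, and the groups overlapped. The log2 fold change was 0.42 (SE 0.18, edgeR p = 0.0319, adjusted p = 0.388).

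Scn3a was lower in Aldh1a7+ cells in all 7 mice. It was at 192, 184, 141, 265, 119, 345, and 298 CPM in the Aldh1a7+ cells of mice 2 to 8 and at 261, 206, 307, 376, 271, 356, and 342 CPM in the Aldh1a7- cells. The differences ranged from small in mice 3 and 7 to large in mice 4 and 6, and the log2 fold change was -0.32 (SE 0.21, edgeR p = 0.140, adjusted p = 0.618). It was 0.04 when 1 read made a cell Aldh1a7+.

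Scn8a was at -0.49 (SE 0.27), lower in 6 of 7 mice, and Scn2b at 0.30 (SE 0.26), higher in 6 of 7. Scn1a, Scn2a1, and Scn9a lay between -0.08 and 0.14. The median of the members was -0.07, against 0.0013 over all genes. Scn8a was at 10 reads in 78.4% of Aldh1a7+ cells (67.3–87.1%) and in 59.3% of Aldh1a7- cells (50.5–67.6%), the opposite order to its summed level, so no order was read from these shares. Aldh1a7+ cells held more genes per cell (median 9779 against 8663). Slc6a3 was the 1 dopamine neuron marker called in edgeR, at a log2 fold change of 1.27 (edgeR adjusted p = 0.0334), and DESeq2 also called Ddc (DESeq2 adjusted p = 0.00403) and Slc18a2 (DESeq2 adjusted p = 0.0136). Oligodendrocyte markers summed to 0–50.2 CPM in Aldh1a7+ cells and 34.0–5261 CPM in Aldh1a7- cells, and DESeq2 called Mbp (DESeq2 adjusted p = 0.00208), Mag (0.00205), and the GABA neuron markers Gad2 (0.00818) and Slc32a1 (0.0117) as lower in Aldh1a7+ cells. Gad1, also a GABA neuron marker, was not called by DESeq2, at means of 24.9 CPM in Aldh1a7+ cells and 23.8 CPM in Aldh1a7- cells. In edgeR, Mbp (adjusted p = 0.125) and Gad2 (adjusted p = 0.192) were not called, and Mag and Slc32a1 were too low to be tested. The part of these markers in the values of the members was not tested. Restriction to cells with both Th and Slc6a3 gave 0.31 for Scn3b and -0.36 for Scn3a.

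Cells positive for Neurod6 or Aldh1a7 alone were also compared, Neurod6+/Aldh1a7- against Aldh1a7+/Neurod6- cells, 31 against 56 cells in 4 mice (2, 3, 5, and 8). Of 10935 genes tested, 0.11% passed (12, and 0 with the mouse as a block), 0 of 7 members passed in edgeR or in DESeq2, which called 2.87% of all genes, and 0 had an unadjusted p under 0.05, as 6.51% of all genes had. Scn3b was at 382, 347, 192, and 229 CPM in Neurod6+/Aldh1a7- cells and at 462, 311, 420.2, and 609 CPM in Aldh1a7+/Neurod6- cells. It was lower in the former in 3 of 4 mice, at -0.67 (SE 0.31, edgeR p = 0.0538, adjusted p = 0.765).

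Markers of other cells differed between these classes as well. Slc17a6, the vesicular glutamate transporter VGLUT2, was at 48.2–347 CPM in Neurod6+/Aldh1a7- cells against 4.22–40.6 CPM (edgeR adjusted p = 0.152, DESeq2 adjusted p = 0.000921). The myelin gene Mbp was at 18.9–71.5 against 0.698–4.42 CPM (edgeR adjusted p = 0.170, DESeq2 adjusted p = 1.43e-06). Neither overlapped between the classes, and their part in the members' values was not tested.

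Scn2a1 was lower in Neurod6+/Aldh1a7- cells in 4 of 4 mice, with overlapping groups (328–525 against 433–652 CPM) and a log2 fold change of -0.32 (SE 0.23), which turned to 0.081 with 50 reads for a positive cell. Scn3a was at 0.42 (SE 0.38) and Scn1a at -0.42 (SE 0.41), which turned to 0.72 with 1 read for a positive cell. Scn8a, at -0.26 (SE 0.60), and Scn2b, at -0.08 (SE 0.35), were within 1 SE of 0, and Scn8a turned to 0.54 and 0.64 with 1 and 50 reads for a positive cell. Scn9a was at -0.0059 (SE 0.60), but that value rests on mouse 8, where 3 Aldh1a7+/Neurod6- cells held 299 CPM against 37.9–70.7 CPM in the other mice. Without mouse 8 it was 0.94 (SE 0.40, edgeR adjusted p = 0.617). The 7 SEs ran from 0.23 to 0.60 in these 4 mice, which limits the size of a difference that could have been detected.

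**Figure D5:**
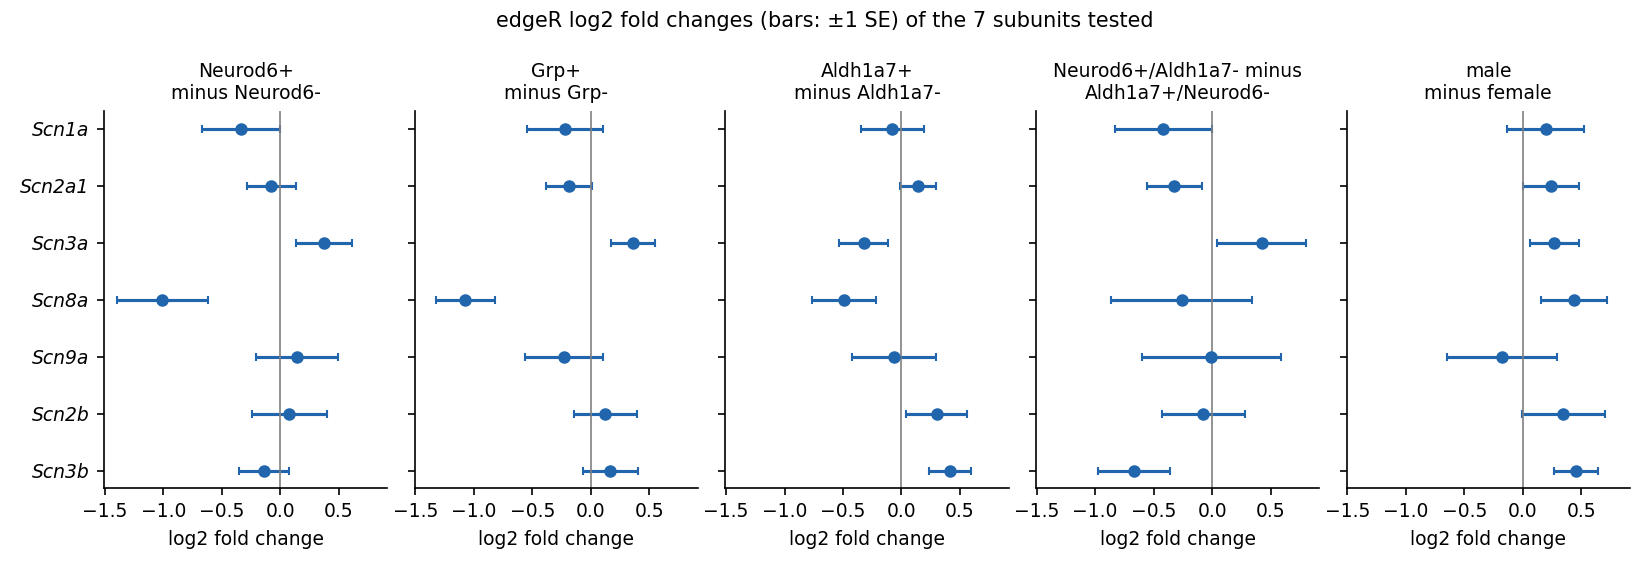
Log2 fold changes of the 7 members tested in the 5 comparisons. The x axis is the edgeR log2 fold change with 1 SE on each side, and 1 panel is shown per comparison. Scn8a lies farthest from 0 by Neurod6 status (-1.01) and by Grp status (-1.07), and no member passed an adjusted p of 0.05 in any panel.

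Between the sexes (5 male and 3 female mice, 15529 genes tested), 0 of 7 members passed in edgeR and DESeq2, where 0.0322% of genes did in edgeR and 2.02% in DESeq2, and 1 member, Scn3b, had an unadjusted p under 0.05, as had 8.12% of all genes. In male mice 2, 3, 5, 7, and 8, Scn3b was at 395, 335, 366, 387, and 423 CPM, and in female mice 1, 4, and 6 at 241, 252, and 352 CPM. The groups overlapped through female mouse 6 and male mouse 3. The log2 fold change, male minus female, was 0.46 (SE 0.19, edgeR p = 0.0353, adjusted p = 0.578).

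On the machine that ran both sexes (3 female and 2 male mice) it was 0.48 (SE 0.27). The other members ran from -0.17 for Scn9a to 0.44 for Scn8a, and the median of the 7 was 0.27 against 0.02 over all genes. The other machine ran males only. Male mice were 24–28 days old and female mice 25–36, and the ages overlapped through female mouse 1 at 25 days. The comparison was not adjusted for age, and the part of age in these differences was not tested. The comparison rests on the sample labels: the series text gives another number of females, and some labelled ages lie outside the age range it states.

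Of 15 genes whose proteins anchor, bind, or regulate these channels (ankyrins, spectrin, adhesion molecules, fibroblast growth factor homologs, and others), 0 passed in edgeR in any of the 5 comparisons. At an unadjusted p under 0.05 there were 3 of 15 by Neurod6 status (6.20% of all genes), 1 by Grp (5.90%), 3 by Aldh1a7 (11.0%), 1 of the 14 tested in Neurod6 against Aldh1a7 cells (6.51%), and 1 by sex (8.12%), and a count of 1 is near the share of all genes. DESeq2 called 2 by Neurod6 (2.05% of all genes) and 1 by Aldh1a7 (3.53%). The 4 with the highest CPM were the axon growth protein Dpysl2 at 9142 ± 2915 CPM (SD, n = 8), the adhesion molecule Cntn1 at 1992 ± 422 CPM, ankyrin B (Ank2) at 630.4 ± 106 CPM, and the channel-binding Fgf13 at 459 ± 156 CPM.

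Cntn1, whose product binds beta subunits, was higher in Neurod6+ cells in 6 of 6 mice (0.46, SE 0.21, edgeR adjusted p = 0.803) and in Grp+ cells in 7 of 7 mice (0.46, SE 0.20, edgeR adjusted p = 0.824). Dpysl2, Ank2, and Fgf13 lay between 0.02 and 0.42 in those comparisons, with edgeR adjusted p of 0.988 or more. The genes called by DESeq2 alone, picked out for that, were Nrcam (0.70, edgeR adjusted p = 0.455) and Fgf11 (-2.26, edgeR adjusted p = 0.396) by Neurod6 status. By Aldh1a7 status it was Prrt2, a presynaptic protein that modulates these channels, at 15.9 against 52.5 CPM on average and lower in Aldh1a7+ cells in 7 of 7 mice (-1.55, SE 0.37, edgeR adjusted p = 0.0879).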

How the data were processed

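RNA of single sorted cells was amplified on the Fluidigm C1 with SMARTer chemistry, made into Nextera XT libraries, and sequenced on an Illumina HiSeq. The authors made the counts with Trimmomatic 0.3.2, TopHat2 2.1.1 (GRCm38.3), and featureCounts 1.5.0-p3 on RefSeq genes, without reads on more than 1 gene or chimeric fragments, and deposited without normalization; bcl2fastq 2.17 is named in the submitters' processing notes. Whether strand was used in counting is not given in the sources used here. All 384 columns matched a sample label. Rows without counts (5721), spike-ins (5.20e-06% of reads), and transgenes (0.00324%) were left out.

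Cells with at least 500000 reads on genes were kept, a limit placed on reads counted on genes because the alignment metrics name no cells. At least 10 reads of a gene made a cell positive for it. Sums of counts were taken by mouse (sex) or by mouse and class, a mouse entering only with 3 or more cells on both sides. The test was that of edgeR 4.0.16 (R 4.3.3; TMM, filterByExpr, quasi-likelihood test, Benjamini-Hochberg adjustment over all genes, threshold 0.05), two-sided; DESeq2 1.42.0 was the other tool. The SE is the log2 fold change divided by the square root of F. Exon lengths are unions over GENCODE M21 transcripts with a RefSeq match. Promoter windows and gene positions are from RefSeq, GRCm38.p6, whose chromosomes have the coordinates of the authors' build; no window was given for Scn3a or Scn3b. Shares have exact Clopper-Pearson 95% intervals, and the limit for a count of 0 is 3 counts; both cover counting error only. Scripts were checked on simulated data.

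Both classes of a mouse come from the same animal, so the mouse was tried as a block. After class means were removed, the classes of a mouse correlated at 0.054–0.275 (Neurod6), 0.0449–0.321 (Grp), 0.0452–0.183 (Aldh1a7), and 0.0351–0.129 (Neurod6 against Aldh1a7 cells). P-values measure the spread between mice, and each mouse is also 1 C1 batch. Other alternatives were another normalization, no filter, 1 or 50 reads for a positive cell, 100000 reads per cell, cells with Th and Slc6a3, 5 cells per class, each mouse left out, and, for sex, the machine that ran both. The genes named were the 8 members, other sodium channel genes by level (some are not reported here), partner genes past the threshold or among the 4 highest in CPM, and the 3 genes most like each member. The members, lists, and tests were chosen with earlier results of these data known.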

Additional observations from a re-analysis of the deposited data

Results flagged for a closer look

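In 80 groups of 4 to 8 mice, the gap of the highest or lowest mouse to its nearest neighbor was set against the range of the group by Dixon's 95% critical value, and 6 passed. The rule passes about 1 in 20 groups by chance, a rate for separate groups that does not hold here, since 5 of the 6 are the same 31 Scn4b reads of mouse 8: 0.324 RPKM among the 8 mice and also among the male mice, 3.25 CPM in Neurod6- cells, 2.57 CPM in Grp+ cells, and 2.30 CPM in Aldh1a7- cells, with every other mouse at 0. The other is Scn9a in the Aldh1a7+/Neurod6- cells of mouse 8, at 299 CPM.

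The 175 cells below 500000 reads (24720976 reads in all) entered no main comparison, and members were counted in them as well. Over these cells together Scn1a was at 161 CPM, Scn2a1 at 402 CPM, Scn3a at 467 CPM, Scn8a at 173 CPM, Scn9a at 155 CPM, Scn2b at 1086 CPM, and Scn3b at 320.3 CPM. Scn4b had 0 reads in them.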

How the results depend on the processing

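The number of members called stayed at 0 under each alternative tried except by Grp status with DESeq2, where Scn8a was called (1 member; log2 fold change -1.07, DESeq2 adjusted p = 0.00554); the cause was not tested. Of 525 alternative log2 fold changes of members, 490 kept sign and side of the threshold and 34, none past the threshold, changed sign. The mouse as a replicate block changed no call of a member. At least 5 cells per class left 1 mouse in the comparison of Neurod6 with Aldh1a7 cells, so it was not run. Grp+ cells only and Neurod6- cells only were chosen after seeing the data. The number of all genes called moved more. By Neurod6 status it was 7, and it was 1 with the replicate block, 333 with DESeq2, 12 with cells from 100000 reads, 3 with at least 5 cells per class, 3 without the filter, 3 with 50 reads for a positive cell, 4 with RLE normalization, 1 among Grp+ cells only, and 1–18 with 1 mouse left out (18 without mouse 3, 3 without mouse 1, and 1 without mouse 2, 5, 7, or 8). By Grp status it was 1, and it was 220 with DESeq2, 2 without the filter, 2 and 3 with 1 and 50 reads for a positive cell, and 1–4 with 1 mouse left out (4 without mouse 3 or 6, 2 without mouse 8). By Aldh1a7 status it was 52, and it was 29 with the replicate block, 24 among cells with Th and Slc6a3, 555 with DESeq2, 129 with cells from 100000 reads, 15 with at least 5 cells per class, 14 with 1 read for a positive cell, and 14–87 with 1 mouse left out (14 without mouse 2, 18 without mouse 5, 23 without mouse 6, 27 without mouse 7, 32 without mouse 4, and 87 without mouse 3). For Neurod6 against Aldh1a7 cells it was 12, and it was 0 with the replicate block, 371 with DESeq2, 60 with cells from 100000 reads, 0 and 5 with 1 and 50 reads for a positive cell, and 0–4 with 1 mouse left out (4 without mouse 8). For sex it was 5, and it was 319 with DESeq2, 0 on the machine that ran both sexes, and 4–5 with 1 mouse left out. The causes were not tested. Sign changes of log2 fold changes were as follows. With cells from 100000 reads they were 0.0024 for Scn2a1 by Neurod6, and 0.76 for Scn9a and 0.062 for Scn2b in Neurod6 against Aldh1a7 cells. With 1 read for a positive cell they were -0.022 for Scn2b by Neurod6, 0.029 for Scn1a and 0.032 for Scn9a by Grp, -0.075 for Scn2a1 and 0.042 for Scn3a by Aldh1a7, and 0.72 for Scn1a, 0.54 for Scn8a, and 1.23 for Scn9a in Neurod6 against Aldh1a7 cells. With 50 reads they were 0.081 for Scn2a1, 0.64 for Scn8a, and 1.14 for Scn9a in that comparison. Scn9a there was also 0.50 with the replicate block, 0.0098 with DESeq2, 0.013 without the filter, and 0.0070 with RLE. With at least 5 cells per class, Scn1a was 0.0031 and Scn9a 0.12 by Aldh1a7. Among Grp+ cells only, Scn2a1 was 0.085 by Neurod6, and on the machine that ran both sexes Scn1a was -0.20. With 1 mouse left out, ranges that crossed 0 were, by Neurod6, -0.057 to 0.50 for Scn9a, -0.0044 to 0.14 for Scn2b, -0.33 to 0.032 for Scn3b; by Grp, -0.40 to 0.10 for Scn1a, -0.038 to 0.35 for Scn3b; by Aldh1a7, -0.21 to 0.086 for Scn1a, -0.26 to 0.077 for Scn9a; in Neurod6 against Aldh1a7 cells, -0.26 to 0.94 for Scn9a, -0.16 to 0.091 for Scn2b; and by sex, -0.091 to 0.44 for Scn1a, -0.52 to 0.65 for Scn9a. The order of the members by RPKM was the same with cells from 100000 reads. The share of cells with a member, counted from 1 read in place of 10, was 89.0% for Scn8a and 93.8% for Scn9a, and no share over all cells moved beyond the spread between mice on thinning to 500000 reads, although within a class Scn9a fell from 73.2% to 57.1% in Aldh1a7+/Neurod6- cells. Scn4b, with 31 reads in all, was too low to be tested.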
